A study of Homo sapiens with 6 samples.

Results

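Semaphorins are secreted or membrane-bound guidance proteins, and plexins and neuropilins are the receptors that bind them. The gene families were taken as 31 genes by symbol: 7 class 3 semaphorins, which are secreted, 13 membrane-bound semaphorins of classes 4 to 7, 9 plexins and 2 neuropilins. Of these, 30 were among the 17039 genes of the expression table, and SEMA5B had no row in it. RNA sequencing compared MDA-MB-231-BR cells (3 libraries), a human breast cancer line that was derived from MDA-MB-231 and seeds metastases in the brain, with MDA-MB-231 cells (3 libraries), the triple-negative parental line. Both were cultured in DMEM with fetal bovine serum and penicillin-streptomycin, and MDA-MB-231-BR cells were also kept in G418, a selection antibiotic that MDA-MB-231 cells did not receive, so that line, G418 and culture history cannot be told apart. Each line is a single derivative or stock, and the libraries are described as independent samples in one place and as parallel replicates in another. The p-values therefore measure only the spread between these libraries, which may be technical.

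In axon guidance, a plexin that binds a semaphorin switches off small GTPases of the R-Ras and Rap type through its own cytoplasmic domain, and the growth cone turns away or collapses. Most class 3 semaphorins cannot bind a plexin alone and use NRP1 or NRP2 as the ligand-binding co-receptor, while membrane-bound semaphorins bind plexins directly. Neuropilins also bind VEGF, and tumor cells use the same proteins in migration, adhesion and vessel growth.

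Expression was given as FPKM, a fragment count scaled by transcript length and by the size of the library, which allows levels of different genes to be compared. VIM, a mesenchymal gene typical of MDA-MB-231, was between 2537 and 2566 FPKM in MDA-MB-231-BR and between 2273 and 2325 FPKM in MDA-MB-231, and CDH1, the epithelial cadherin, did not pass 0.03 FPKM in any library. CD44, listed with VIM, went the other way, at 177 to 185 FPKM in MDA-MB-231-BR and 248 to 253 FPKM in MDA-MB-231. The 6 luminal and hormone receptor genes summed to between 20.4 and 21.2 FPKM in MDA-MB-231-BR and to between 10.8 and 11.6 FPKM in MDA-MB-231, with ESR1 at most 1.08 FPKM and PGR at most 0.07 FPKM. The difference rested mostly on ERBB2 (9.61 to 10.23 against 4.75 to 5.08 FPKM) and EPCAM (8.34 to 9.31 against 4.44 to 5.49 FPKM). GATA3 was also higher in MDA-MB-231-BR (1.05 to 1.36 against 0.32 to 0.51 FPKM). Of the brain and blood lists, astrocyte genes summed to at most 0.09 FPKM and endothelial genes to at most 0.50 FPKM. The sums of the neuronal (21.2 to 54.6 FPKM), oligodendrocyte (12.8 to 21.3 FPKM) and leukocyte (62.0 to 84.2 FPKM) lists were higher in MDA-MB-231-BR. They rested on TUBB3, MBP and CD68, with RBFOX3, MOG and PTPRC at most 0.16, 0.09 and 0.04 FPKM. In the neuronal list SNAP25 (0.02 to 0.08 against 0.17 to 0.26 FPKM) and SYP (0.12 to 0.18 against 0.18 to 0.22 FPKM) went the other way. The part of these lists in the results was not tested, and in bulk RNA fewer cells with a transcript and less of it per cell cannot be told apart.

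Among the 4 classes, the secreted ligands had the largest median difference between the lines. The 7 class 3 genes summed to 41.4, 41.0 and 39.8 FPKM in the 3 libraries of MDA-MB-231-BR, against 16.8, 16.9 and 15.8 FPKM in MDA-MB-231, a log2 difference of 1.30 (exact 2-sided permutation test, p = 0.1, the smallest that 3 against 3 libraries can give). All 7 passed the test, with 6 higher (SEMA3D not after quantile normalization) and SEMA3C lower in MDA-MB-231-BR, where 44.4% of all 13465 genes tested were called higher and 32.9% lower. SEMA3A, SEMA3B, SEMA3E, SEMA3F and SEMA3G rose by more than 1 on the log2 scale, as did 10.9% of all genes. SEMA3G reached the mean of 0.1 FPKM needed for testing only through MDA-MB-231-BR. Its direction was therefore fixed by the filter, and the counts include it. The study had already listed these 5 genes, from the same samples, as axon guidance genes higher in MDA-MB-231-BR. It also placed SEMA3A among its most up-regulated genes. SEMA4D, SEMA4G, SEMA6D and PLXNC1 were in the same axon guidance list, so none of these values is separate support for it.

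SEMA3A, the founding repellent of the class and a ligand of NRP1 with A-type plexins, was at 20.3, 19.8 and 19.7 FPKM in MDA-MB-231-BR and at 1.55, 1.47 and 1.36 FPKM in MDA-MB-231. The libraries of each line lay close together and far from those of the other line, and the log2 fold change was 3.68 ± 0.0579 (SE; limma, adjusted p = 1.9e-11), a ratio of means of 13.6. SEMA3A moved from place 16 among the 30 genes in MDA-MB-231 to place 4 in MDA-MB-231-BR. SEMA3E, which binds PLXND1 without a neuropilin, had 2.70, 2.75 and 2.61 FPKM in MDA-MB-231-BR and 0.30, 0.28 and 0.32 FPKM in MDA-MB-231. Its log2 fold change was 2.80 ± 0.0987 (SE; limma, adjusted p = 3.5e-09), a ratio of means of 8.96. SEMA3B, known as a tumor suppressor gene that many carcinomas lose, had 2.19, 3.10 and 2.31 FPKM in MDA-MB-231-BR and 0.42, 0.38 and 0.34 FPKM in MDA-MB-231. Replicate 2 of MDA-MB-231-BR was the highest of its line, and the lines stayed apart, with a log2 fold change of 2.44 ± 0.141 (SE; limma, adjusted p = 1.1e-07). SEMA3F, a ligand of NRP2, had 3.42, 3.44 and 3.22 FPKM in MDA-MB-231-BR and 0.98, 1.42 and 1.05 FPKM in MDA-MB-231, and rose by 1.48 ± 0.123 on the log2 scale (SE; limma, adjusted p = 1.6e-06).

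SEMA3G, a further NRP2 ligand, had 0.75, 0.66 and 0.73 FPKM in MDA-MB-231-BR and 0.01 FPKM, the smallest step of the table, in all 3 MDA-MB-231 libraries. It passed the test (limma, adjusted p = 7.7e-08), but its log2 fold change of 2.88 depends on the 0.1 FPKM added before the logarithm and was 0.76 with 1 FPKM and 5.17 with 0.01 FPKM added. SEMA3D was at 1.04, 1.03 and 0.99 FPKM against 0.79, 0.72 and 0.70 FPKM, a small difference (log2 fold change 0.42 ± 0.103, SE; limma, adjusted p = 0.0036) that was -0.02 and not called after quantile normalization. SEMA3C, which signals through both neuropilins, was the exception of the class. It was at 11.0, 10.3 and 10.2 FPKM in MDA-MB-231-BR and at 12.8, 12.6 and 12.01 FPKM in MDA-MB-231, so that it fell by 0.24 ± 0.0451 on the log2 scale (SE; limma, adjusted p = 0.00063). The make-up of the class therefore turned over between the lines: SEMA3C held 74.7 to 76.1% of the class 3 FPKM in MDA-MB-231 and 25.1 to 26.7% in MDA-MB-231-BR, and SEMA3A held 8.61 to 9.21% and 48.2 to 49.5% (exact permutation p = 0.1 for each, the smallest possible). Of the FPKM of all semaphorins, class 3 held 17.9% ± 0.664 (SD, n = 3) in MDA-MB-231 and 32.2% ± 0.439 (SD, n = 3) in MDA-MB-231-BR.

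**Figure D1:**
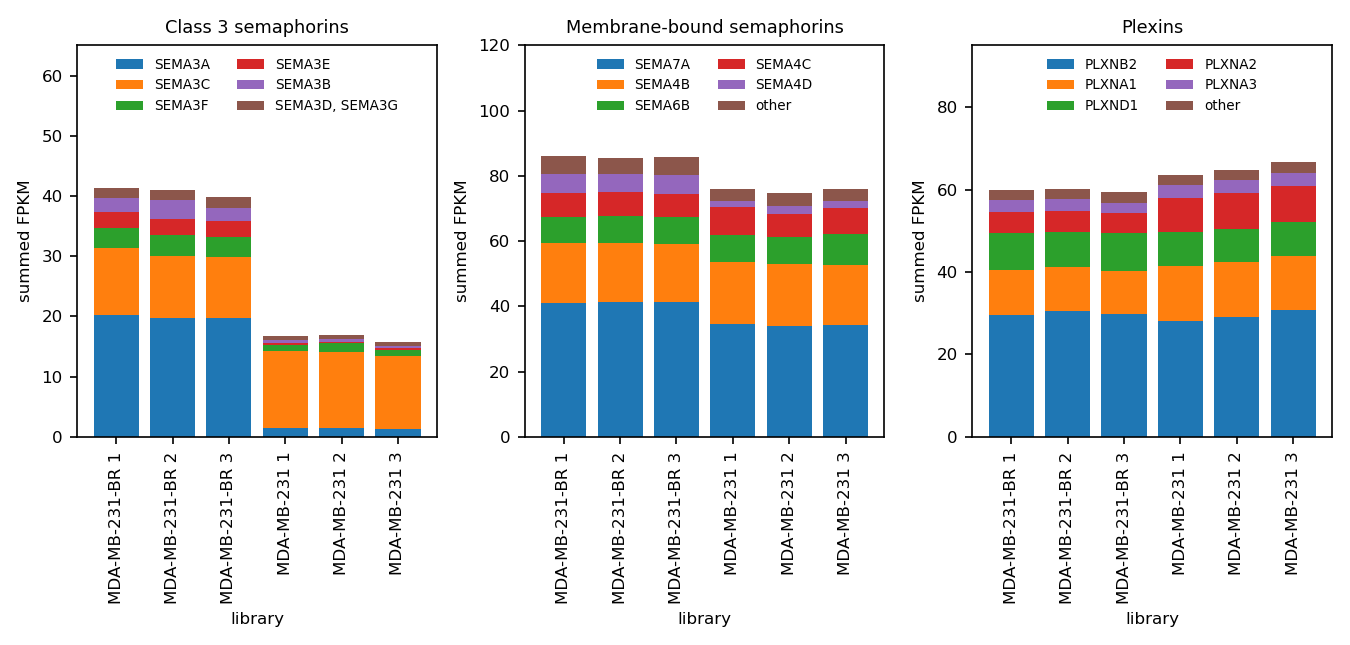
Stacked bars give the summed FPKM of each library (horizontal axis) for class 3 semaphorins, membrane-bound semaphorins and plexins, with the leading genes in color. The class 3 bars reach 39.8 to 41.4 FPKM in MDA-MB-231-BR and 15.8 to 16.9 FPKM in MDA-MB-231, and SEMA3A is the block that differs most, while the plexin bars stay between 59.3 and 66.8 FPKM.

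The class 3 genes that moved together were set beside their promoters, taken from RefSeq on GRCh38.p14 as the 250 bases before the 5′-most annotated start of each gene. An entry was found for 26 of the 31 genes and not for SEMA3A, SEMA5B, SEMA6A, SEMA6B and NRP1. The 4 with an entry that rose by more than 1 on the log2 scale are printed with SEMA3C, the gene that fell, so that their sequence can be compared. All are written 5′ to 3′ on the strand of the gene, with CpG dinucleotides in capitals. The windows are chr3:50259976-50260225 (plus strand) for SEMA3B, chr7:83649140-83649389 (minus strand) for SEMA3E, chr3:50154808-50155057 (plus strand) for SEMA3F, chr3:52445104-52445353 (minus strand) for SEMA3G and chr7:80922390-80922639 (minus strand) for SEMA3C.
SEMA3B: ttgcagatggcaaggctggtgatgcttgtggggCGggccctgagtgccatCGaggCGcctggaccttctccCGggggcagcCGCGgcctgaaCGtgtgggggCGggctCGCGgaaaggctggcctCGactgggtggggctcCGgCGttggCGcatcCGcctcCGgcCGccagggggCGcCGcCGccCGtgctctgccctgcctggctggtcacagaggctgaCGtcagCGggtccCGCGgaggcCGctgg
SEMA3E: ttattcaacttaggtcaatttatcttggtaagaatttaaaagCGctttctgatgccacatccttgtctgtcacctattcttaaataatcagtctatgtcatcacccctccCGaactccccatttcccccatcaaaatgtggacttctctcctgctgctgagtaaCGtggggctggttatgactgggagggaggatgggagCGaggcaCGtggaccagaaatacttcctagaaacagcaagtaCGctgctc
SEMA3F: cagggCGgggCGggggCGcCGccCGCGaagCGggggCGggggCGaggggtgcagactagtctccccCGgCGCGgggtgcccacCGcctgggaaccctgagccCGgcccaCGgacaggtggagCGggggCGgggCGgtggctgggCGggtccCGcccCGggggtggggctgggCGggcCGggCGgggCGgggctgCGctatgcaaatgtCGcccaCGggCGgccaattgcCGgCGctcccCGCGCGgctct
SEMA3G: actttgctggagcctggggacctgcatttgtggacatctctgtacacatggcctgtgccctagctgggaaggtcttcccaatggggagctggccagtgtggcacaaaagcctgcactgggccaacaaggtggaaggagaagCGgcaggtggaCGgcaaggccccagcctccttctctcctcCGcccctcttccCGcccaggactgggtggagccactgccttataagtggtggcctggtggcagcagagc
SEMA3C: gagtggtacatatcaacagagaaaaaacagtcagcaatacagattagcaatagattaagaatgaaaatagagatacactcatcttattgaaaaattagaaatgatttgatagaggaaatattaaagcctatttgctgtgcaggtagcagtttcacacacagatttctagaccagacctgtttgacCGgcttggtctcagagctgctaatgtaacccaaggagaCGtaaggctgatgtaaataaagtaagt

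The promoters of the genes that rose did not share one type of sequence. SEMA3F and SEMA3B held 34 and 26 CpG in their windows, more than 93.4% and 81.0% of the 27303 promoters, 1 per gene, in the RefSeq table. SEMA3E and SEMA3G held 6 and 4 CpG, fewer than the median of 10 over all promoters, and SEMA3C held 2. The window of SEMA3D, which is not printed, held 13. GGGCGG, the SP1 box, which overlaps a CpG by its letters, was searched on both strands and occurred 12 times in SEMA3F, 3 times in SEMA3B and 2 times in SEMA3G, and not in SEMA3C, SEMA3D or SEMA3E. It was present in 42.2% of all promoters and in 19 of the 26 of these families. CANNTG, the E-box, reads the same on both strands and was in 4 of the 6 class 3 windows, and in 62.2% of all promoters. The AP-1 letters TGANTCA and the TATA box letters TATAAA, on either strand, were in none of the 26 windows and in 6.6% and 11.2% of all promoters. Which start the cells used was not measured.

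SEMA3C, SEMA3E, SEMA3A and SEMA3D lie in this order on chromosome 7, with CACNA2D1 and PCLO as the only other genes of the table between them. CACNA2D1, a calcium channel subunit, had a log2 fold change of 0.09 and PCLO, a presynaptic scaffold, of 0.65, against 2.80 and 3.68 for SEMA3E and SEMA3A next to them. The 40 nearest genes with a mean of at least 1 FPKM, 20 on either side, had a median log2 fold change of 0.08 around SEMA3A and 0.07 around SEMA3E, close to the median of all genes tested, 0.08. SEMA3F and SEMA3B lie near each other on chromosome 3, with GNAI2 between them at -0.55 and the neighbours' median at -0.04, and SEMA3G lies further along the same chromosome with a neighbours' median of 0.01. SEMA3E and SEMA3A lay above every other tested gene in the stretch plotted around them, whereas SEMA3C and SEMA3D lay within the range of those genes, and SEMA3F (1.48) was close to NAA80 (1.37), which lies a few genes from it. For some other members most neighbours lay on one side of 0. Above 0 were 39 of the 40 neighbours of PLXNC1 on chromosome 12 (median 0.52), 36 of 40 for SEMA5A on chromosome 5 (0.47) and 33 of 40 for PLXNA2 on chromosome 1 (0.40). Few were above 0 for NRP1 on chromosome 10 (7 of 40, -0.31), PLXNB2 on chromosome 22 (6 of 29, -0.32) and PLXNA3 on chromosome X (5 of 35, -0.36). For others the neighbours were divided, as for NRP2 (20 of 40 above 0, median 0.004), SEMA4F (21 of 40, 0.085) and SEMA7A (23 of 40, 0.068). The part of these neighbourhoods in the members' values was not tested.

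**Figure D2:**
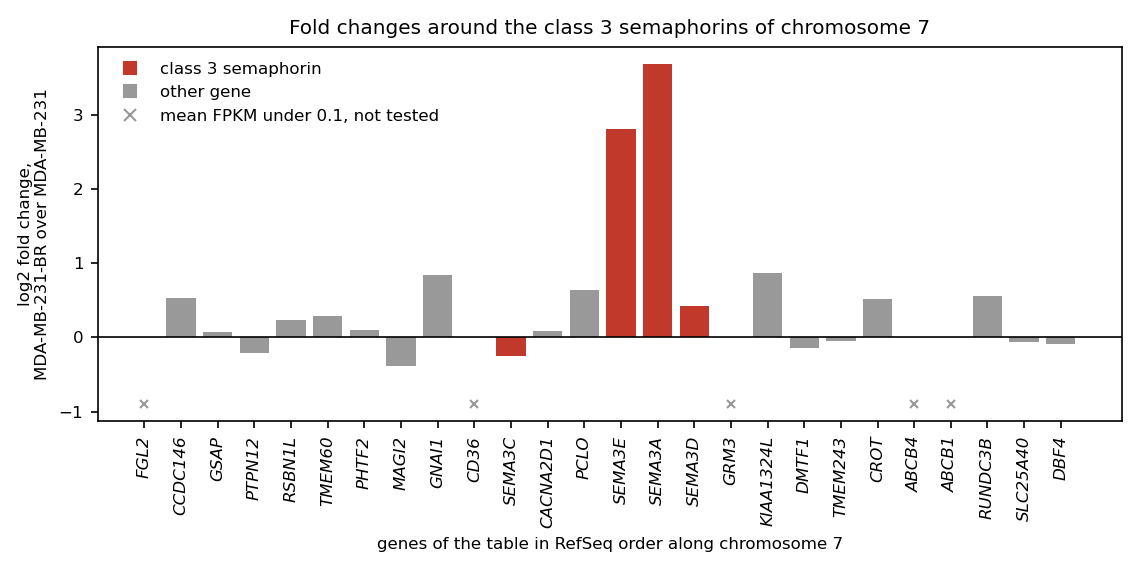
Each bar is the log2 fold change of MDA-MB-231-BR over MDA-MB-231 for a gene of the table, in RefSeq order along chromosome 7, with class 3 semaphorins in red and crosses for genes under the expression limit. SEMA3E and SEMA3A stand at 2.80 and 3.68, and the tested genes around them lie between -0.39 and 0.87.

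Membrane-bound semaphorins changed less as a group. Their summed level was 86.2, 85.5 and 85.9 FPKM in MDA-MB-231-BR and 76.0, 74.7 and 76.1 FPKM in MDA-MB-231, a log2 difference of 0.18 (exact permutation p = 0.1, the smallest possible). Of the 13 genes, 11 were tested, 6 passed as higher (SEMA4F not after rescaling) and 0 as lower, and 2, SEMA4D and SEMA5A, rose by more than 1 on the log2 scale. The share called higher, 54.5%, was not far from the 44.4% of all genes. Of these 11 genes, 0% were lower and 18.2% rose by more than 1, beside 32.9% and 10.9% of all genes. SEMA5A and SEMA6D reached the mean of 0.1 FPKM needed for testing only through MDA-MB-231-BR. Their direction was therefore fixed by the filter, and the counts and shares of this class include them. SEMA7A, a GPI-anchored ligand of PLXNC1 and of integrins that contain ITGB1, was the most abundant gene of all 4 classes in both lines. It was at 41.1, 41.3 and 41.2 FPKM in MDA-MB-231-BR and at 34.7, 34.1 and 34.4 FPKM in MDA-MB-231. The lines did not overlap, although the change was small, a log2 fold change of 0.26 ± 0.0247 (SE; limma, adjusted p = 4.8e-06). SEMA4D, the ligand of PLXNB1 and PLXNB2, also known as CD100 of lymphocytes, was at 5.91, 5.67 and 5.76 FPKM against 1.81, 2.26 and 2.19 FPKM. It rose by 1.43 ± 0.0844 on the log2 scale (SE; limma, adjusted p = 1.3e-07), a ratio of means of 2.77. SEMA5A, a ligand of PLXNB3, was at 0.40, 0.30 and 0.31 FPKM in MDA-MB-231-BR and listed at 0 in all 3 libraries of MDA-MB-231 (limma, adjusted p = 3.1e-06), so that no fold is given.

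The other membrane-bound genes were low or changed little. SEMA4G had 0.75, 0.58 and 0.82 FPKM against 0.28, 0.33 and 0.32 FPKM and rose by 0.98 ± 0.151 on the log2 scale (SE; limma, adjusted p = 0.00017). SEMA6D, a ligand of PLXNA1, had 0.19, 0.25 and 0.19 FPKM against 0.11, 0.05 and 0.06 FPKM and also passed the test (limma, adjusted p = 0.0036). SEMA4F, at 2.97 to 3.27 FPKM against 2.58 to 2.86 FPKM, was called by a small margin (log2 fold change 0.20, 95% interval 0.04 to 0.36; limma, adjusted p = 0.025), and the call was lost without replicate 1 (adjusted p = 0.083) or 3 (0.075) of MDA-MB-231-BR or replicate 1 (0.077) or 2 (0.052) of MDA-MB-231, after median-of-ratios scaling (0.12, adjusted p = 0.14), and after quantile normalization, where the value was -0.08. SEMA4B (17.9 to 18.3 against 18.3 to 19.0 FPKM), SEMA4C, a ligand of PLXNB2 (7.06 to 7.45 against 7.27 to 8.56 FPKM), and SEMA6B (7.91 to 8.47 against 8.12 to 9.59 FPKM) were abundant and overlapped between the lines. Their 95% intervals of the log2 fold change were -0.12 to 0.02, -0.25 to 0.03 and -0.21 to 0.09. SEMA6A and SEMA6C reached at most 0.55 and 0.45 FPKM and had wider intervals, -0.01 to 0.73 and -0.60 to 0.26. Rescaling made calls of some: SEMA4B was lower after median-of-ratios scaling (-0.13, adjusted p = 0.0035) and quantile normalization (-0.13, adjusted p = 0.0055), as was SEMA4C (-0.20, adjusted p = 0.014, and -0.27, adjusted p = 0.0025), and SEMA6B (-0.19) and SEMA6C (-0.55) were lower after quantile normalization (adjusted p = 0.027 for each). SEMA4C was also called lower without replicate 2 of MDA-MB-231 (-0.17, adjusted p = 0.035), and SEMA6A was called higher without replicate 1 of MDA-MB-231 (0.51, adjusted p = 0.016). SEMA4A did not exceed 0.04 FPKM and was not tested.

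**Figure D3:**
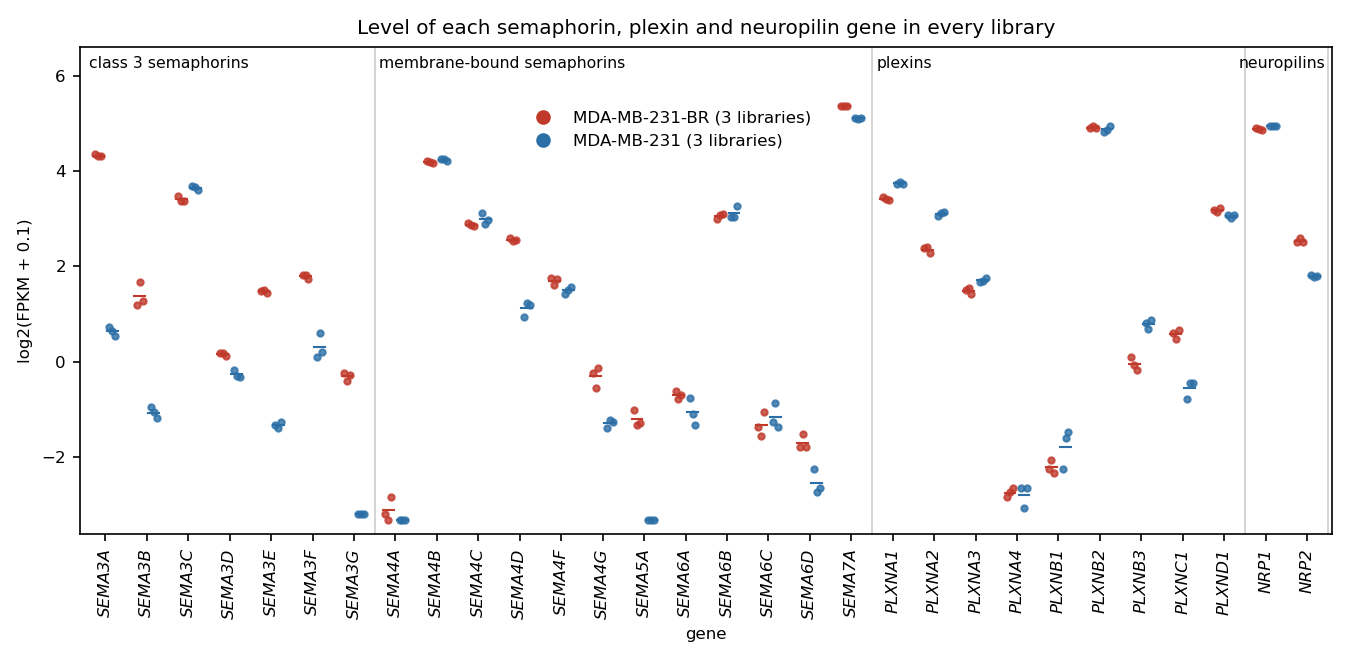
Points give log2(FPKM + 0.1) of each of the 30 genes (horizontal axis) in the 3 libraries of MDA-MB-231-BR (red) and the 3 of MDA-MB-231 (blue), and short lines give the mean of each line. SEMA3A moves from 1.46 to 19.9 FPKM on average, SEMA7A, PLXNB2 and NRP1 stand highest in both lines.

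The plexins, as a sum, were slightly lower, with single genes in both directions. Plexin FPKM summed to 59.9, 60.1 and 59.3 in MDA-MB-231-BR and to 63.5, 64.7 and 66.8 in MDA-MB-231, a log2 difference of -0.12 (exact permutation p = 0.1, the smallest possible). Of 9 plexins, 8 were tested, 4 (50%) passed as lower and 2 (25%) as higher, beside 32.9% and 44.4% of all genes. PLXNA2 was at 5.15, 5.17 and 4.74 FPKM in MDA-MB-231-BR and at 8.28, 8.62 and 8.69 FPKM in MDA-MB-231. Every library of MDA-MB-231-BR was below every library of MDA-MB-231, and the gene fell by 0.75 ± 0.0525 on the log2 scale (SE; limma, adjusted p = 4.3e-07). PLXNA1, the most abundant A-type plexin, had 10.9, 10.6 and 10.4 FPKM against 13.2, 13.6 and 13.1 FPKM and fell by 0.32 ± 0.0376 (SE; limma, adjusted p = 2.3e-05). PLXNA3 fell by 0.23 (2.59 to 2.81 against 3.11 to 3.30 FPKM; limma, adjusted p = 0.011). All 3 expressed A-type plexins, which pair with neuropilins to receive class 3 semaphorins, were thus lower in the line with more class 3 transcripts, and PLXNA4 stayed at or below 0.06 FPKM and was not tested.

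PLXNB3, the receptor of SEMA5A, had 0.98, 0.86 and 0.79 FPKM in MDA-MB-231-BR and 1.67, 1.52 and 1.73 FPKM in MDA-MB-231, a log2 fold change of -0.84 ± 0.107 (SE; limma, adjusted p = 4.3e-05) that was the lowest among the members tested. PLXNC1, the plexin of SEMA7A, was the only one of the 8 plexins tested that rose by more than 1 on the log2 scale. It was at 1.43, 1.30 and 1.5 FPKM against 0.48, 0.64 and 0.64 FPKM, a log2 fold change of 1.14 ± 0.127 (SE; limma, adjusted p = 1.5e-05), and lay among neighbours of which nearly all were above 0. PLXNB2 supplied 50.2% ± 0.737 (SD, n = 3) of plexin FPKM in MDA-MB-231-BR and 45.1% ± 0.812 (SD, n = 3) in MDA-MB-231 while its own level, 29.6 to 30.6 against 28.2 to 30.7 FPKM, overlapped between the lines (95% interval of the log2 fold change -0.05 to 0.12). PLXND1, the receptor of SEMA3E, was at 8.66 to 9.25 FPKM in MDA-MB-231-BR and at 8.0 to 8.34 FPKM in MDA-MB-231. Its log2 fold change of 0.13 was called (limma, adjusted p = 0.024), but not without replicate 1 (adjusted p = 0.062) or 3 (0.09) of MDA-MB-231-BR or replicate 2 (0.082) of MDA-MB-231, nor after median-of-ratios scaling (0.05, adjusted p = 0.36) or quantile normalization (-0.006, adjusted p = 0.92). PLXNB1 did not exceed 0.26 FPKM and was not called (-0.44, 95% interval -0.96 to 0.09), except without replicate 1 of MDA-MB-231 (-0.67, adjusted p = 0.014) and after quantile normalization (-0.80, adjusted p = 0.012).

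NRP1 and NRP2 differed from each other. NRP1, the co-receptor of SEMA3A and of VEGFA, was at 30.0, 29.6 and 28.8 FPKM in MDA-MB-231-BR and at 30.7, 30.9 and 30.5 FPKM in MDA-MB-231. The libraries did not overlap but lay within a few percent, and the gene was not called (log2 fold change -0.06, 95% interval -0.12 to 0.003; limma, adjusted p = 0.077), although it was called lower after median-of-ratios scaling (-0.14, adjusted p = 0.00097) and quantile normalization (-0.10, adjusted p = 0.0084). NRP2, the co-receptor of SEMA3F and SEMA3G, was at 5.58, 5.96 and 5.60 FPKM against 3.41, 3.31 and 3.39 FPKM and rose by 0.74 ± 0.0556 on the log2 scale (SE; limma, adjusted p = 7.4e-07). The share of NRP1 in neuropilin FPKM was 83.2 to 84.3% in MDA-MB-231-BR and 89.99 to 90.3% in MDA-MB-231 (exact permutation p = 0.1, the smallest possible). The sum of both was 35.1 ± 0.664 FPKM and 34.0 ± 0.169 FPKM (SD, n = 3), a log2 difference of 0.05 that turned to -0.04 after median-of-ratios scaling.

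Set side by side as known pairs, ligand and receptor did not follow one pattern. SEMA3E rose (2.80) while PLXND1 stood at 0.13, and SEMA3F (1.48) and SEMA3G rose with NRP2 (0.74). SEMA3C fell by 0.24 while NRP1 was not called and NRP2 rose. SEMA7A (0.26) rose with PLXNC1 (1.14) while ITGB1 fell by 0.96. SEMA4D rose (1.43) while PLXNB2 stood at 0.03 and PLXNB1 was not called (-0.44). SEMA4C and PLXNB2 were both not called. SEMA6D was called higher while PLXNA1 fell, and SEMA5A was called higher while PLXNB3 fell by 0.84. SEMA3G, SEMA5A and SEMA6D were tested only because of their level in MDA-MB-231-BR, so the filter fixed the ligand's direction in these pairs. SEMA3A rose (3.68) while NRP1 stood at -0.06 and PLXNA1 and PLXNA2 fell by 0.32 and 0.75.

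Counted over both families, 28 of the 30 genes in the table reached a mean of 0.1 FPKM and were tested, and 3 of these, SEMA3G, SEMA5A and SEMA6D, reached it only through MDA-MB-231-BR. At an adjusted p under 0.05, 15 were higher and 5 lower in MDA-MB-231-BR, that is 53.6% and 17.9% of those tested, where 44.4% of all 13465 genes tested were higher and 32.9% lower. With a log2 fold change over 1 as well, 8 members were higher (28.6%, all genes 10.9%) and 0 lower (all genes 4.34%). Every MDA-MB-231-BR library was above every MDA-MB-231 library for 15 members and below for 6, as was so for 44.9% and 33.5% of all genes. The filter fixed the direction of the 3 genes that passed through MDA-MB-231-BR alone. Without them, 12 of 25 (48%) were higher, 6 (24%) by more than 1 on the log2 scale, and 5 (20%) lower. The shares of all genes were not reduced in the same way. The median log2 fold change was 0.23 over the members tested, 2.44 for class 3, 0.26 for membrane-bound semaphorins, -0.27 for plexins and 0.34 for the neuropilins, beside 0.08 over all genes, and after quantile normalization those of all members and of membrane-bound semaphorins were -0.01 and -0.06. Scaling changed the balance: 75% of the called members were higher, 61.9% after median-of-ratios scaling (13 higher, 8 lower) and 52.2% after quantile normalization (12 higher, 11 lower), which shifted the median of all genes by -0.14 and moved the share of higher calls over all genes from 57.4% to 45.6%. Of the 8 members with a log2 fold change over 1, 7 were still called so after quantile normalization, and PLXNC1 was not.

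**Figure D4:**
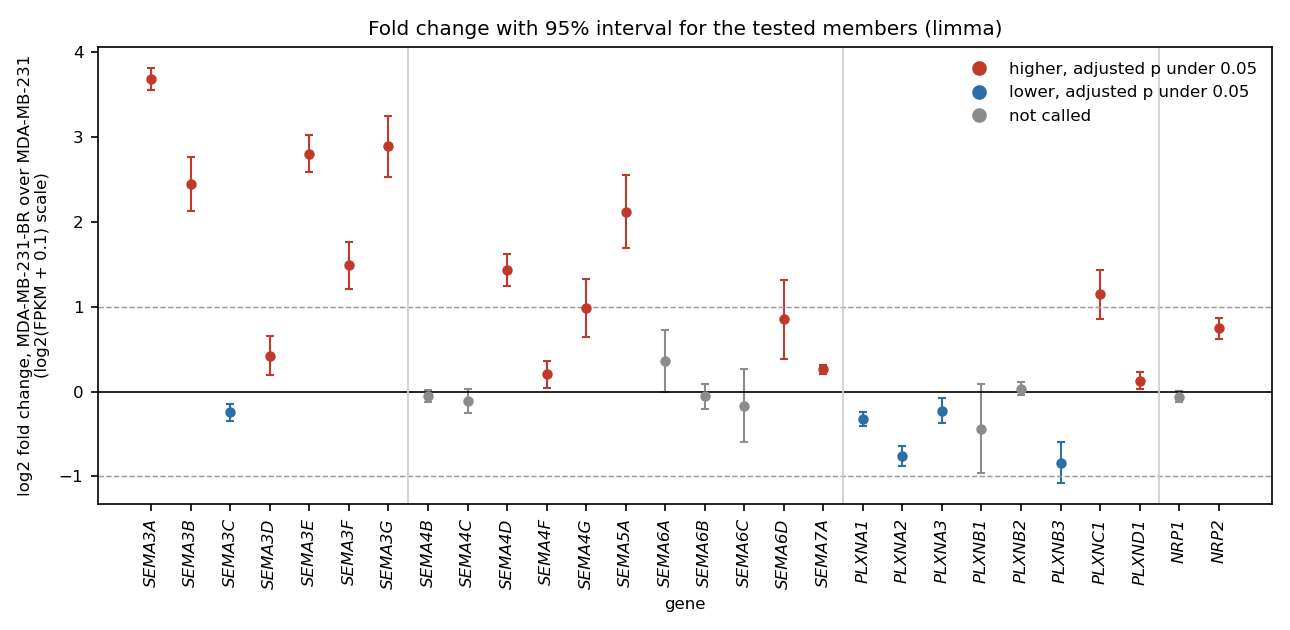
Points give the log2 fold change of MDA-MB-231-BR over MDA-MB-231 for the 28 tested genes and bars the 95% interval from limma, with vertical lines between the 4 classes and dashed lines at 1 and -1. Of the class 3 genes 5 lie above 1, no gene lies below -1, and SEMA3D, SEMA4F and PLXND1, shown as higher, were below 0 after quantile normalization.

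Of 71 partner and signalling genes of the pathway, 68 were in the table and 58 were tested. At an adjusted p under 0.05, 25 (43.1%) were higher and 22 (37.9%) lower, and with a log2 fold change over 1 as well 11 (19.0%) were higher and 5 (8.62%) lower, with a median of 0.07. Of all genes tested, 44.4% were higher and 32.9% lower, and with the fold limit 10.9% and 4.34%. The list thus lay near the background of all genes without the fold limit, and above it in both directions with the limit. Among the list genes past the fold limit, FLT1, FES and RHOD reached a mean of 0.1 FPKM only through the line where they were higher. Their direction was therefore fixed by the filter, and the counts include them. Among 20 other receptors and co-receptors, 12 were tested, 8 (66.7%) were higher, 4 (33.3%) lower, and 6 (50%) rose by more than 1 on the log2 scale, beside 44.4%, 32.9% and 10.9% of all genes. CSPG4, the NG2 proteoglycan, had 3.91, 4.07 and 4.12 FPKM in MDA-MB-231-BR and 0.12, 0.09 and 0.14 FPKM in MDA-MB-231, the largest increase among the tested genes of the list (log2 fold change 4.26 ± 0.118, SE; limma, adjusted p = 6.2e-10). MST1R, the RON kinase that associates with B-type plexins, rose by 1.93 (1.64 to 1.85 against 0.33 to 0.43 FPKM; limma, adjusted p = 1.6e-07). SDC3, a syndecan, was at 14.9 to 15.4 FPKM against 5.17 to 5.78 FPKM and rose by 1.45 (limma, adjusted p = 2.8e-09). KDR, the VEGF receptor that pairs with NRP1, was at 1.39 to 1.64 FPKM against 0.46 to 0.63 FPKM and rose by 1.38 (limma, adjusted p = 4.3e-06). PTK7, a kinase-dead receptor of planar polarity that also binds plexins, was at 25.4 to 26.7 FPKM against 11.1 to 11.9 FPKM and rose by 1.15 (limma, adjusted p = 2.7e-09). The sixth was FLT1, averaging 0.39 FPKM in MDA-MB-231-BR, named here after its values were seen. ITGB1, named likewise as a receptor of SEMA7A, was at 243 to 249 FPKM against 462 to 494 FPKM and fell by 0.96 (limma, adjusted p = 6.8e-10).

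VEGFA, the ligand that competes for NRP1, was at 12.5, 12.1 and 13.6 FPKM in MDA-MB-231-BR and at 54.9, 53.2 and 55.2 FPKM in MDA-MB-231. It fell by 2.09 ± 0.0437 on the log2 scale (SE; limma, adjusted p = 9.3e-11). Of the 4 VEGF-type ligands tested, 2 (50%) were lower and 0 higher, beside 32.9% and 44.4% of all genes, and 4 genes are too few to compare shares. FURIN and PCSK5, convertases that cleave class 3 semaphorins, moved apart. FURIN was at 6.98, 7.36 and 7.30 FPKM against 22.5, 22.8 and 22.5 FPKM and fell by 1.63 ± 0.0369 (SE; limma, adjusted p = 1.6e-10). PCSK5 was at 2.75, 2.59 and 2.54 FPKM against 0.51, 0.58 and 0.66 FPKM and rose by 2.002 ± 0.105 (SE; limma, adjusted p = 5.6e-08). Both differences left no overlap between the lines. PCSK6, a further convertase of the list, was at 0.11 to 0.14 FPKM against 0.15 to 0.18 FPKM and was not called (-0.24; limma, adjusted p = 0.24).

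Of 40 effectors, 36 were tested, 15 (41.7%) were higher and 14 (38.9%) lower, near the 44.4% and 32.9% of all genes. With a log2 fold change over 1 as well, 4 (11.1%) were higher and 3 (8.33%) lower, beside 10.9% and 4.34% of all genes. These counts include FES and RHOD. DPYSL2, the CRMP2 protein that carries the SEMA3A signal to microtubules, was at 30.3 to 30.97 FPKM against 12.01 to 13.4 FPKM and rose by 1.27 ± 0.0414 (SE; limma, adjusted p = 2e-09). GSK3B, the kinase that phosphorylates it and a gene the study had selected on these samples, rose by 1.35 (12.7 to 13.1 against 4.85 to 5.07 FPKM; limma, adjusted p = 1.6e-09). The study's primary screen of the same samples had also listed DPYSL2, FES, VEGFA and ITGB1. MRAS, a Ras GTPase, rose by 1.87 (2.11 to 2.54 against 0.49 to 0.61 FPKM; limma, adjusted p = 1.5e-07). FES, averaging 0.43 FPKM in MDA-MB-231-BR and named after its values were seen, also passed the test, but reached the filter only through that line. LIMK1, the kinase that inactivates cofilin, fell by 1.68 (6.09 to 6.49 against 19.4 to 22.1 FPKM; limma, adjusted p = 1.9e-09). FARP1, a Rac exchange factor, fell by 1.40 (6.79 to 6.99 against 17.9 to 18.8 FPKM; limma, adjusted p = 5.8e-10). RHOD was listed at 0 in the 3 libraries of MDA-MB-231-BR and had 2.31, 2.47 and 2.45 FPKM in MDA-MB-231 (limma, adjusted p = 6e-10), and no fold is given.

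**Figure D5:**
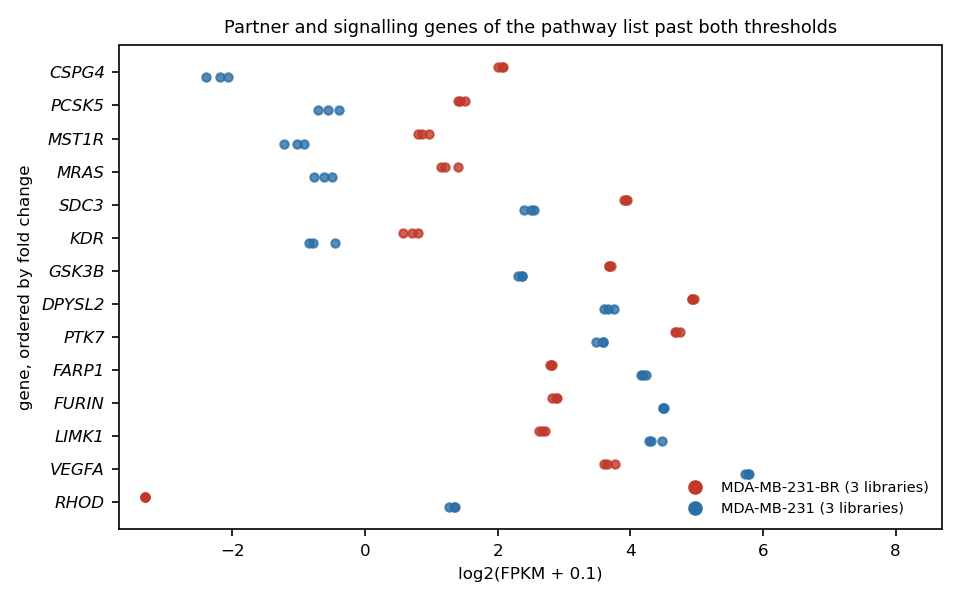
Points give log2(FPKM + 0.1) (horizontal axis) in the 3 libraries of each line for the 14 pathway genes with an adjusted p under 0.05, a log2 fold change beyond 1 in either direction and a mean of at least 1 FPKM in either line. From CSPG4 at the top to PTK7, 9 genes are higher in MDA-MB-231-BR, and FARP1, FURIN, LIMK1, VEGFA and RHOD are lower, with no overlap of the lines for any of the 14.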

How the data were processed

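The authors isolated poly(A) mRNA, sequenced it on the BGISEQ-500 with paired reads and deposited FPKM values per gene, rounded to 2 decimals, for 6 libraries. The submitters' processing notes name HISAT2 2.0.4, Bowtie2 2.2.5 and GRCh38.p12, and the program that computed the FPKM is not given in the sources used here. No read counts were used, so the depth is unknown, and 3 libraries per line limit the precision. The 6 single-library files held the same values as the table. The summed FPKM was between 465020 and 472007 in MDA-MB-231-BR and between 486937 and 496420 in MDA-MB-231, and the lowest correlation between libraries of one line, across genes, was 0.997. The authors' count test could not be applied to FPKM. Instead log2(FPKM + 0.1) was fitted with limma 3.58.1 in R 4.3.3 (lmFit, eBayes with a mean-variance trend, cell line as the only term) for the 13465 genes whose FPKM averaged 0.1 or more, with Benjamini-Hochberg adjustment over all of them. Fold changes are on that log2 scale and understate the change of low genes. The fit was tested on simulated data. Sums and shares were compared by exact 2-sided permutation tests over libraries. Figures used Python 3.11.15 and matplotlib 3.10.9. Gene order was taken from RefSeq (GRCh38.p14) by gene identifier, for which 16787 genes were placed. The members and lists were chosen with earlier results of these data known. All members are named, and of the pathway list those that passed 0.05 after adjustment, changed by over 1 on the log2 scale and averaged 1 FPKM or more in one line or the other. Alternatives were pseudocounts of 1 and 0.01, no filter, a filter at 1 FPKM, median-of-ratios scaling, quantile normalization, no trend, a replicate block, each library left out in turn, and 10 neighbours per side.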

Additional observations from a re-analysis of the deposited data

How the results depend on the processing

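The 5 class 3 semaphorins higher by more than 1 on the log2 scale were 4 with a pseudocount of 1 and with a filter at a mean of 1 FPKM, both without SEMA3G, and 5 under the other alternatives. Where tested, the 14 named pathway genes kept their side of the adjusted p threshold and their direction under every alternative run, as did 17 of the 28 members. The count of members over 1, 8, was 5 with a pseudocount of 1 and 5 with a filter at a mean of 1 FPKM, which left fewer members to test, and that of pathway genes, 11, was 7 with a pseudocount of 1. The filter also gave 9 members higher in place of 15. The 5 members lower became 8 under median-of-ratios scaling and 11 under quantile normalization, where 1 was lower by more than 1. Medians moved with the pseudocount of 1 (members 0.14, class 3 1.02, membrane-bound 0.16, plexins -0.14), with 0.01 (class 3 2.69), with the filter (members 0.035, membrane-bound 0.077), with median-of-ratios scaling (members 0.15, class 3 2.37, membrane-bound 0.18, plexins -0.35, neuropilins 0.26, pathway genes -0.01) and with quantile normalization (members -0.012, class 3 2.07, membrane-bound -0.063, plexins -0.47, neuropilins 0.20, pathway genes 0.003). The log2 differences of the sums after median-of-ratios scaling were 1.22 for class 3, 0.10 for membrane-bound semaphorins, -0.20 for plexins and -0.037 for neuropilins. Signs turned after quantile normalization for SEMA3D (-0.018), SEMA4F (-0.084), SEMA6A (-0.063), PLXNB2 (-0.006) and PLXND1 (-0.006), and for PLXNB2 after median-of-ratios scaling (-0.048). The cause was not tested. Without single libraries the class 3 median was 2.29 to 2.54, SEMA6B -0.10 to 0.02 and the difference in the PLXNA4 share of plexin FPKM -0.009 to 0.023 percentage points.

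A term for the replicate number (replicate block) left 15 members higher and 5 lower and moved the calls over all genes from 5973 higher and 4433 lower to 6015 and 4487. Deviations of libraries with the same number correlated at 0.0873, -0.0396 and -0.106, and only replicate 1 of MDA-MB-231-BR correlated best with its own number, so the numbers were not used as pairs. Depth is unknown, and genes near 0.01 FPKM give no reliable fold.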
